A study of Mus musculus with 6 samples.

Results

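The genes described here encode the proteins of the cytosolic ribosome, measured in the paraventricular nucleus of the mouse hypothalamus (PVN) after 1 electroconvulsive seizure (ECS). A gene was taken as a member when a probe set carried its symbol alone and the symbol was Rpl or Rps with a number and at most 1 letter (a, l or x), or Rplp0, Rplp1, Rplp2 or Rpsa. Symbols marked as pseudogenes by the ending -ps and the Rps6k kinases were left out. This gave 45 of the 12393 genes that have a probe set with 1 symbol, namely 24 of the large (60S) and 21 of the small (40S) subunit. Where a gene had several probe sets, the one of highest mean signal over the 6 arrays stood for it. Of the 45 genes, 42 passed the signal filter, 21 of each subunit. Rpl3 and Rplp1 had no probe set with 1 symbol and were not analysed here, as was the case for Rpl5, Rpl10 and Rpl10l.

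All animals were C57Bl/6 mice under isoflurane, and no transgene or deletion is named for any group. In the ECS groups a current of 25 mA was passed through ear clips for 1 s, at 100 pulses per s of 0.5 ms each, and brains were taken after 2 h or 6 h. Sham animals were handled alike without current and were taken at 2 h, so the 6 h group has no sham of its own time. The 3 groups hold 2 arrays each (n = 2 throughout), each made from laser-cut PVN of a pool of 2 to 3 animals, and the arrays were done in repeat runs with other animals. The replicate numbers 1 and 2 are read here as those runs, which no label states in words. The p-values measure the spread between pools, which includes any difference between the runs unless the replicate number is fitted as a block. Each signal is given below as log2 of the quantile-normalized intensity plus 16, a scale whose floor is 4, and values run from sham to 2 h to 6 h with replicate 1 first.

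The ribosome makes all cytosolic protein, and its proteins are needed in near-equal amounts, since each sits once in a 60S or 40S subunit apart from the acidic proteins of the stalk. Their mRNAs are among the most abundant of any cell. Most begin with a terminal oligopyrimidine (TOP) tract, a C followed by a run of C and T at the very start of the transcript. Through this tract the mTOR pathway sets how much of these mRNAs is translated, which is a step that mRNA levels do not show. In neurons, activity and growth factors act on that pathway, and S6 kinase phosphorylates the 40S protein Rps6.

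The deposited array medians ran from 25.2 to 40.8, and Gapdh read 14.1 times higher on its 3' than on its 5' probe set in replicate 1 of the 6 h group, against 6.43 to 10.5 in the other arrays. That array also had the lowest mean rank correlation with the others, at 0.887. The PVN hormone genes Oxt (oxytocin) and Avp (vasopressin) were present on all arrays, at 10.82 to 11.49 and 9.55 to 10.15. In bulk tissue fewer cells of a type and less RNA per cell cannot be told apart.

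Sequences around the annotated start were available for 39 members (RefSeq, GRCm38.p6), with 6 unmatched. A tract, here a C and at least 4 further C or T that begins within 5 bases of the start, was found in 19 of the 39 (48.7%), against 21.2% of 27025 genes searched the same way. The windows below hold 15 bases on each side of the start, 5′ to 3′ on the gene's strand, with the tract in capitals. Shown are 7 of the 19, namely the S6 kinase substrate Rps6 and 6 others whose signals are described below. A gene with several annotated starts was counted when any of them had a tract, and for Rps24 and Rps27l a second start had none.
Rps6, chr4:86857353-86857382, minus strand: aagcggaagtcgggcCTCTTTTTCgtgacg
Rplp2, chr7:141447636-141447665, plus strand: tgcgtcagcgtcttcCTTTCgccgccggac
Rps24, chr14:24490663-24490692, plus strand: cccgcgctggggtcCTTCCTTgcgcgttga
Rps27l, chr9:66946071-66946100, plus strand: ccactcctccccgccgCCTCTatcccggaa
Rps18, chr17:33955651-33955680, minus strand: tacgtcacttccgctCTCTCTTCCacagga
Rps10, chr17:27635230-27635259, minus strand: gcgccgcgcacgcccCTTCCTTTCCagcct
Rpl38, chr11:114668565-114668594, plus strand: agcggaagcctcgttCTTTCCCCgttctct
For comparison, these are windows of 3 members in which no tract was found at the annotated start, shown because Rps25 had the smallest unadjusted p, Rpl41 had probe sets of opposite sign and Rps3 lay above sham on all 4 ECS arrays.
Rps25, chr9:44407699-44407728, plus strand: tttttccgacatcttagcgaggctgctgtg
Rpl41, chr10:128549154-128549183, minus strand: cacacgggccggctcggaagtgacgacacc
Rps3, chr7:99483695-99483724, minus strand: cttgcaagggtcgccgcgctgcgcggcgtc
An annotated start a few bases off would hide a tract. Over the window from 250 bases before to 50 after the start, searched on both strands, CCGGAAG (the core that ETS factors bind) was in 20 of 39 members (51.3%) and in 9.93% of all genes. GGGCGG (the GC box of Sp factors) was in 53.8% of members and 38.2% of genes, AAGATGGC (the core of YY1 sites) in 7.69% and 3.19%, and TATAAA in 12.8% and 15.7%. CCGGAAG and AAGATGGC can share the letters AAG, and the other pairs were not checked for shared bases.

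Set against sham at the same time, the 2 h group shows the transcripts soon after the seizure. No ribosomal protein gene passed the test: limma called 0 of 42 at an adjusted p of 0.05 (0.0% of all 12662 tested probe sets), and 1 member, Rps25, had an unadjusted p under 0.05 (4.0% of all tested). The signals nonetheless lay on 1 side, with 36 of 42 members higher than sham (50.9% of all tested probe sets) and a median difference of 0.14 on the log2 scale, or 1.10-fold, against a median of 0.0077 over all tested probe sets. The middle of the members lay between 0.085 and 0.20. Within replicate 1 the median was 0.12 and within replicate 2 it was 0.17. A higher value at 2 h in both runs was found for 29 of 42 members (27.6% of all tested), and a lower one in both for 2 (26.6%). Both 2 h arrays lay above both sham arrays for 11 members (16.3%) and below both for 2 (16.4%), Rpl39 and Rps9.

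The size of this shift moved when single arrays were left out. Without replicate 2 of the sham group the median was 0.0022, with 21 of 41 members higher. Without replicate 1 of the 2 h group it was 0.031, with 25 of 41 higher. Without replicate 1 of sham or replicate 2 at 2 h it was 0.30 or 0.25. Leaving out 1 of these arrays sets unlike runs against each other, and the members differed by replicate number, by a median of 0.18. The part of this in these values was not tested. With the replicate number as a block, 8 of 42 members had an unadjusted p under 0.05, all 8 of them higher (of all tested, 6.52% had such a p, 3.06% higher and 3.47% lower). Those 8 were Rpl11, Rpl19, Rpl27, Rps3, Rps14, Rps24, Rps25 and Rps27l. Limma again called 0 members, with a lowest adjusted p of 0.50, while with this block it called 4 of all 12662 tested probe sets (0.0316%). Other bright probe sets, the 739 non-members at a mean log2 signal of 10 or more, had a median of -0.010 and were higher in both runs in 27.3% of cases.

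Rps25, a 40S protein that many mRNAs can do without but that some viral entry sites need, had the widest gap. Its signals were 5.52 and 5.59 in sham, 6.66 and 7.32 at 2 h, and 5.05 and 6.11 at 6 h. Both 2 h arrays stood above all other arrays. The 2 h difference was 1.44 ± 0.47 (SE), with an unadjusted limma p of 0.011 and an adjusted p of 1.0, and ran from 0.89 to 1.81 with an offset of 64 or 1. This gene has 1 probe set, which is dim, and no second measurement on the array.

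Rps27l, a paralog of Rps27 that p53 switches on, stood at 8.27 and 7.78 in sham, 8.95 and 8.34 at 2 h, and 8.53 and 8.33 at 6 h. Both ECS groups lay above both sham arrays, with a 2 h difference of 0.62 ± 0.34 (limma adjusted p = 1.0). Its other 2 probe sets gave 0.50 and 0.59, so that the 3 probe sets of the gene pointed the same way. Rps27 itself was dim and variable, at 4.99 and 5.57, then 6.49 and 4.63, then 4.91 and 4.85, and its groups at 2 h and in sham overlapped.

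Among bright 40S members the differences were small and the errors narrow. Rps3, which lines the mRNA entry channel, read 12.22 and 12.31, then 12.37 and 12.47, then 12.42 and 12.42. All 4 ECS arrays lay above both sham arrays, by 0.15 ± 0.10 at 2 h. Rps14, a protein of the 40S platform, read 12.15 and 12.24, then 12.50 and 12.26, then 12.21 and 12.10. Its 2 h arrays were the highest, but replicate 2 at 2 h exceeded the nearer sham array by little, and the within-run differences were 0.35 and 0.022. Rps19, a 40S maturation factor best known from inherited anaemia, read 9.99 and 9.58, then 10.29 and 9.92, then 10.15 and 9.85. Its groups overlapped, although the difference was alike in both runs, at 0.30 and 0.34.

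Rps18, a protein of the 40S head, read 11.39 and 11.23, then 11.53 and 11.42, then 11.39 and 11.39, with both 2 h arrays above sham. Rpsa, a 40S protein also known as the laminin receptor, read 12.16 and 12.02, then 12.29 and 12.17, then 12.15 and 12.001. Its 2 h arrays were the top pair, 0.14 ± 0.12 above sham. Rps9, which helps decoding accuracy, was the bright 40S member that was lower at 2 h, at 12.23 and 12.23, then 12.09 and 12.13, then 12.38 and 12.16. Its 2 h difference was -0.11 ± 0.12. Rps6, the S6 kinase substrate, read 8.05 and 7.61, then 7.92 and 7.64, then 7.93 and 7.58, with overlapping groups and a 2 h difference of -0.050 ± 0.35.

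Of the 60S members, 17 of 21 were higher at 2 h, with a median of 0.13, and of the 40S members 19 of 21, with a median of 0.15. Rpl19, which forms a bridge between the subunits, read 11.19 and 11.02, then 11.43 and 11.26, then 11.43 and 11.25. All 4 of its ECS arrays lay above both sham arrays, by 0.24 ± 0.16 at 2 h. Rpl27 read 11.51 and 11.64, then 11.71 and 11.85, then 11.49 and 11.71, with both 2 h arrays, and 1 of the 6 h arrays, above the sham pair. Rpl41, the smallest ribosomal protein, read 10.70 and 10.55, then 11.06 and 10.79, then 10.42 and 10.54 on its chosen probe set, a difference of 0.31 ± 0.18 at 2 h. Both 2 h arrays were above sham and both 6 h arrays just below.

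The stalk proteins Rplp0 and Rplp2, which recruit the elongation factors, differed from sham by 0.22 ± 0.23 and 0.18 ± 0.30 at 2 h. Rpl11, which with 5S rRNA can bind Mdm2 and so raise p53, read 11.63 and 11.24, then 11.81 and 11.50, then 11.84 and 11.34. Its sham and 2 h arrays overlapped, with within-run differences of 0.18 and 0.26. Rpl39, a protein of the exit tunnel, was the lowest member of the comparison at -0.56 ± 0.45. It is dim, at 5.39 and 5.82, then 5.29 and 4.79, then 6.02 and 6.01, so its 6 h arrays were the highest and its 2 h arrays the lowest.

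By their chosen probe sets, the steadiest members were Rpl4, Rps15, Rpl38 and Rps28. Rpl4, which lines the exit tunnel, stayed between 11.37 and 11.48 on all 6 arrays, and its 2 h difference was -0.0028 ± 0.14. Rpl38, known for its part in the translation of Hox mRNAs, stayed between 12.74 and 12.95, with a 2 h difference of 0.0020 ± 0.094. Rps28 lay between 12.09 and 12.33 and Rps15 between 11.67 and 11.86. A second bright probe set of Rps15 was less steady, at 9.86 and 9.85, then 10.25 and 10.24, then 10.29 and 10.07. On it every ECS array lay above both sham arrays, by 0.39 ± 0.20 at 2 h and 0.32 ± 0.20 at 6 h. Rpl13a, a 60S protein often used as a reference gene, read 13.05 and 13.13, then 13.05 and 13.09, then 12.83 and 13.20. Its 2 h and sham means differed by -0.018 ± 0.11 on this chosen probe set. The other tested probe sets of Rpl13a gave 0.16, 0.31 and 0.36 at 2 h, each higher in both runs, and -0.028, -0.0019 and -0.084 at 6 h. The 2 h value of this gene thus depends on the probe set.

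**Figure D1:**
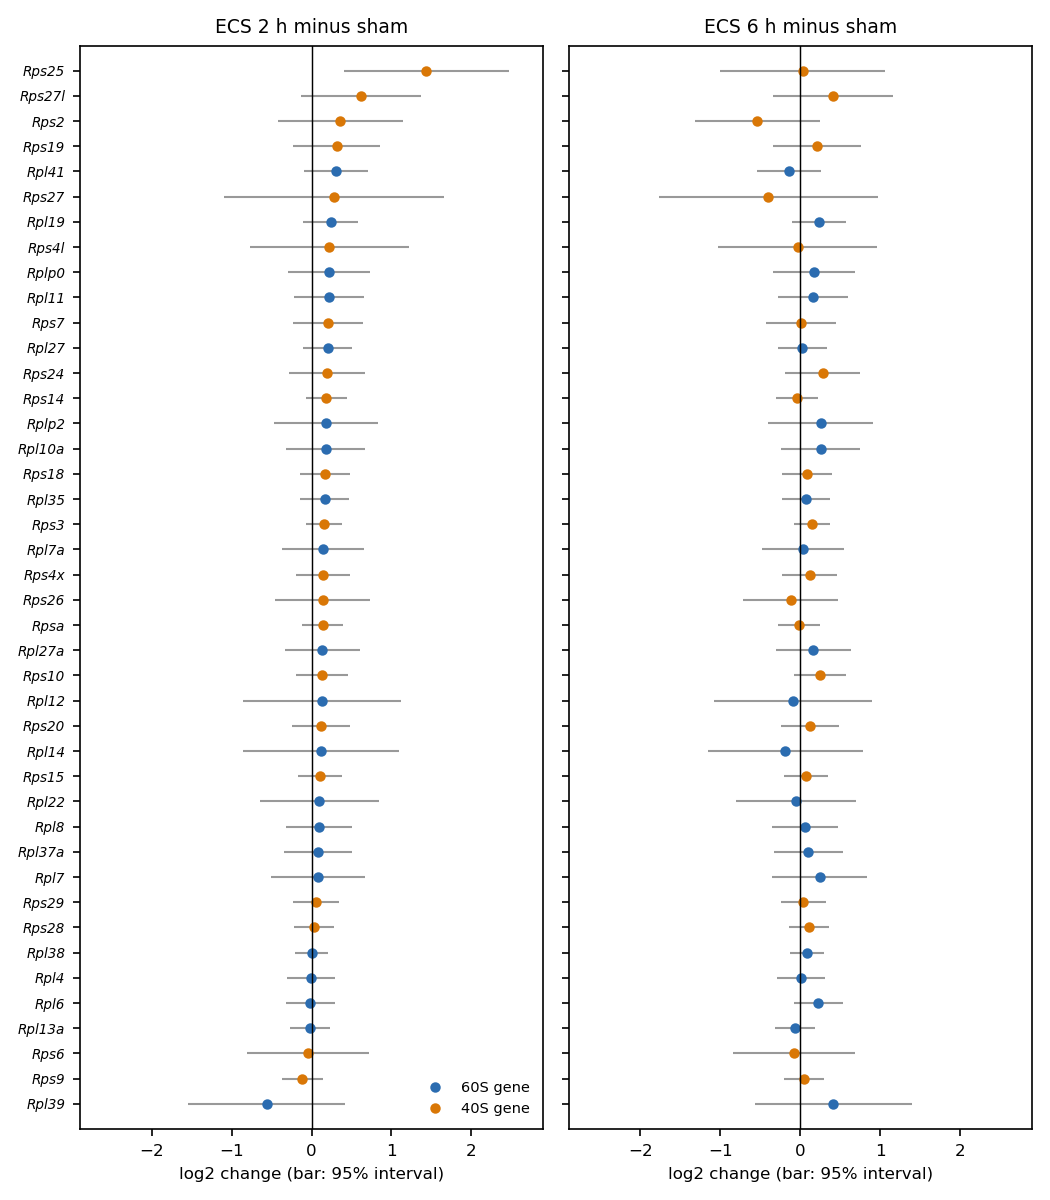
Fitted log2 change of the 42 tested ribosomal protein genes at 2 h (left) and 6 h (right) against sham, as points (blue for 60S, orange for 40S), with 95% limma intervals as bars and genes ordered by the 2 h value. Only the 2 h interval of Rps25 lies wholly above 0, and 36 points at 2 h and 30 at 6 h are above 0.

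The intervals bound how large a change the arrays could have missed. The 95% limma interval lay within 2-fold in either direction for 34 of 42 members at 2 h, against 29.7% of all tested probe sets. Among the 34 members with a mean log2 signal of 9 or more this held for 33. It also held for 708 of the 739 non-members with a mean log2 signal of 10 or more (95.8%), so narrow intervals were not particular to the members. The interval's half-width ran from 0.21 to 1.37, with a median of 0.43. Differences of 0.085 to 0.20, between which the middle of the members lay, are below the narrowest of these half-widths.

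At 6 h, set against the same sham arrays, limma again called 0 of 42 members (0.0% of all tested), and 0 had an unadjusted p under 0.05 (3.75%). Of the 42, 30 were higher (49.6% of all tested) and 12 lower, with a median of 0.076 against -0.0033 over all tested probe sets. The members ran from -0.54 (Rps2) to 0.41 (Rpl39). A higher value in both runs was found for 21 (25.6% of all tested), a lower one for 7 (26.1%). Both 6 h arrays lay above both sham arrays for 8 members (14.8%), namely Rpl6, Rpl19, Rpl39, Rps3, Rps4x, Rps10, Rps18 and Rps27l, and below both for 2 (15.3%), Rpl41 and Rps27. For Rps18 replicate 1 at 6 h exceeded replicate 1 of sham by only 0.0017. Without replicate 2 of the sham group the median was -0.025, with 19 of 41 members higher, and without replicate 1 of the 6 h group it was 0.0084, with 21 of 42 higher. Without replicate 1 of sham or replicate 2 at 6 h it was 0.21 or 0.15. These fits too set unlike runs against each other, while the medians within replicates 1 and 2 were 0.033 and 0.14. Without scaling, or with the median subtracted, 38 of 42 were higher, with medians of 0.27 and 0.29 where all tested probe sets shifted by 0.075 and 0.10.

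Rps10, a protein near the mRNA entry, read 11.09 and 11.12, then 11.16 and 11.31, then 11.40 and 11.30, and all 4 ECS arrays lay above sham, by 0.24 ± 0.15 at 6 h. Rpl6 read 11.29 and 11.32, then 11.32 and 11.25, then 11.58 and 11.48, which puts both 6 h arrays above the other 4. Its difference from sham was 0.23 ± 0.14 at 6 h and -0.017 ± 0.14 at 2 h. Rps4x, the X-linked form of a 40S protein, read 11.38 and 11.16, then 11.54 and 11.29, then 11.39 and 11.38, and its 6 h arrays cleared the sham pair by little. Rpl10a, whose tagged form is used to pull down ribosomes of chosen cells, read 11.04 and 10.65, then 11.32 and 10.72, then 11.21 and 10.99, with groups that overlapped and a 6 h difference of 0.26 ± 0.22.

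Rps2, at the mRNA entry of the 40S subunit, had the lowest value at 6 h. It read 11.03 and 10.51, then 11.32 and 10.94, then 10.88 and 9.58. Replicate 2 at 6 h was the lowest of the 6 arrays, and the sham and 6 h groups overlapped. The difference of -0.54 ± 0.36 from sham became 0.11 without that array and -1.17 without replicate 1 at 6 h. With the replicate number as a block, 7 of 42 members had an unadjusted p under 0.05 at 6 h (6.26% of all tested). They were Rpl6, Rpl19, Rplp2, Rps3, Rps10 and Rps24 above sham (6, where 2.88% of all tested were) and Rps2 below (1, where 3.38% were). Limma called 0 members with this block (0.0% of all tested), with a lowest adjusted p of 0.68.

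Between 2 h and 6 h limma called 0 of 42 members (0.0%), and 3 had an unadjusted p under 0.05 (3.46% of all tested), which were Rps25, Rps2 and Rpl41, all lower at 6 h. The median difference was -0.041, with 15 members higher at 6 h (49.0% of all tested) and 27 lower. With the replicate number as a block 5 had an unadjusted p under 0.05 (5.69%), Rpl6 higher (1, where 2.67% of all tested were) and Rpl41, Rps2, Rps14 and Rps25 lower (4, where 3.02% were). Limma called 0 members with this block (0.0% of all tested), with a lowest adjusted p of 0.61. Both 6 h arrays lay below both 2 h arrays for 8 members (15.0%) and above for 5 (14.4%). Rps25 differed by -1.41 ± 0.47, Rps2 by -0.90 ± 0.36 and Rpl41 by -0.45 ± 0.18, each with a limma adjusted p of 1.00. Rpl39 and Rpl6 went the other way, by 0.97 ± 0.45 and 0.24 ± 0.14. Without replicate 2 at 6 h the value for Rps2 was -0.25. The median over the members was 0.076 without replicate 1 at 2 h and -0.16 without replicate 2 at 2 h. Such fits set unlike runs against each other. With the values as deposited 32 of 42 members were higher at 6 h, and with the median subtracted 28, where all tested probe sets shifted by 0.16 and 0.066. The comparisons share their arrays, the sham pair or the 2 h and 6 h pairs, so they are not independent of one another.

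**Figure D2:**
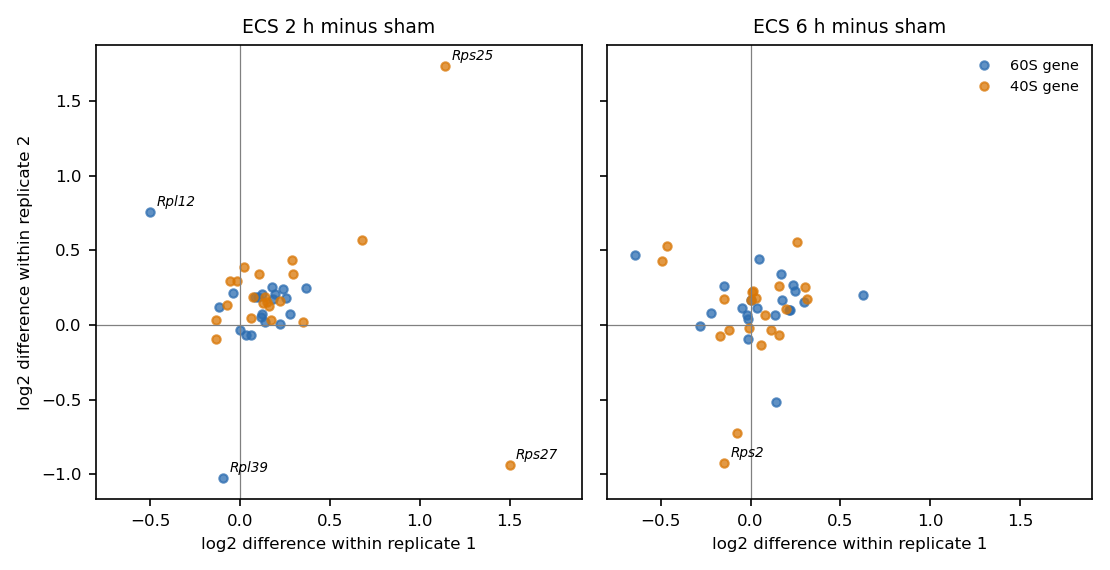
Log2 difference from sham of each of the 42 genes within replicate 1 (x axis) and replicate 2 (y axis), at 2 h (left) and 6 h (right), with blue points for 60S and orange for 40S genes. At 2 h 29 genes are above 0 on both axes and 2 below 0 on both, at 6 h 21 and 7.

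The members also differed by replicate number. Replicate 1 lay above replicate 2 in all 3 groups for 25 of 42 members (18.4% of all tested), and below it in all 3 for 3 (18.2%). The median difference of replicate 1 minus replicate 2 was 0.18 over the members and -0.0036 over all tested probe sets, and by group it was 0.26 in sham, 0.22 at 2 h and 0.15 at 6 h. In the fit with the run as a term, a test chosen after seeing the data, limma called 5 of 42 members (0.9% of all tested), all higher in replicate 1. An unadjusted p under 0.05 was reached by 19 (14.3%), of which 17 were higher in replicate 1 (6.21% of all tested). If the replicate number is the run, as read here, the animals differ with it as well, and the part of each cannot be told apart. Some control readings also split by replicate number. The 3' to 5' ratio of Actb was 0.70, 0.77 and 0.76 in replicate 1, and 0.65, 0.56 and 0.56 in replicate 2. The deposited 5' signal of 18S rRNA was 5212, 5700 and 6929 against 9046, 8283 and 8931. The Gapdh ratio did not split so at 2 h, at 7.19 and 7.47. The part of these in the members' values was not tested.

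Rplp2 had the lowest adjusted p of the 5. It read 11.44 and 10.74, then 11.63 and 10.92, then 11.68 and 11.01, a run difference of 0.70 ± 0.084 (limma adjusted p = 0.010). Every replicate 1 array lay above every replicate 2 array, and in each run both ECS arrays lay above the sham array. Rps24, a 40S protein with several splice forms, showed the same order, at 11.89 and 11.44, then 12.11 and 11.61, then 12.19 and 11.70, with a run difference of 0.48 ± 0.066 (adjusted p = 0.014).

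Rpl22, a 60S protein that also binds RNA outside the ribosome, read 10.27 and 9.60, then 10.39 and 9.68, then 10.26 and 9.51, a run difference of 0.71 ± 0.14 (limma adjusted p = 0.042). Its paralog Rpl22l1, which the naming rule leaves out, read 11.10 and 10.14, then 11.36 and 10.50, then 11.21 and 10.37. Both paralogs had replicate 1 above replicate 2 in every group. Rpl11 and Rpl37a completed the 5, with run differences of 0.40 ± 0.077 and 0.41 ± 0.066 (limma adjusted p = 0.042 and 0.025). The run difference of Rpl37a was 0.13 on its second bright probe set and -0.024 on a dim one.

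The deviation of the members from their own mean over the 6 arrays had a median of 0.044 and -0.21 in sham, 0.17 and -0.033 at 2 h, and 0.13 and -0.085 at 6 h. Sham replicate 2 was thus the low array, and it held the lowest value of 22 of 42 members. The highest value lay in replicate 1 at 2 h for 18 members and in replicate 1 at 6 h for 13. The other bright probe sets had median deviations from -0.018 to 0.025 on the same arrays. Replicate 2 of the sham group was also the array with the highest deposited median (40.8) and the lowest Gapdh ratio (6.43), and the part of these in the members' low values was not tested.

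**Figure D3:**
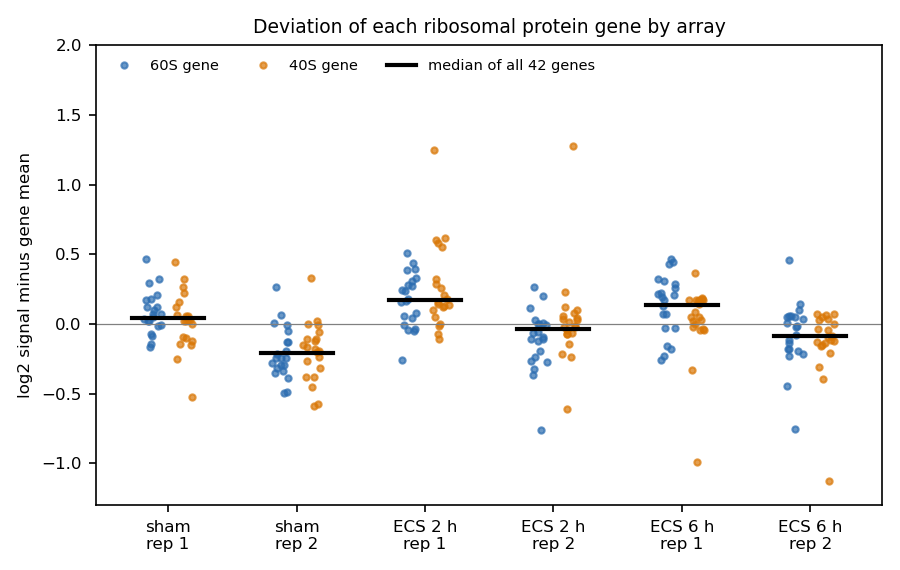
Log2 signal of each of the 42 genes minus its own mean over the 6 arrays, by array, with blue points for 60S genes, orange points for 40S genes and a black line at the median of all 42. The line is lowest in sham replicate 2 (-0.21) and highest in replicate 1 at 2 h (0.17), and replicate 1 lies above replicate 2 in each group.

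**Figure D4:**
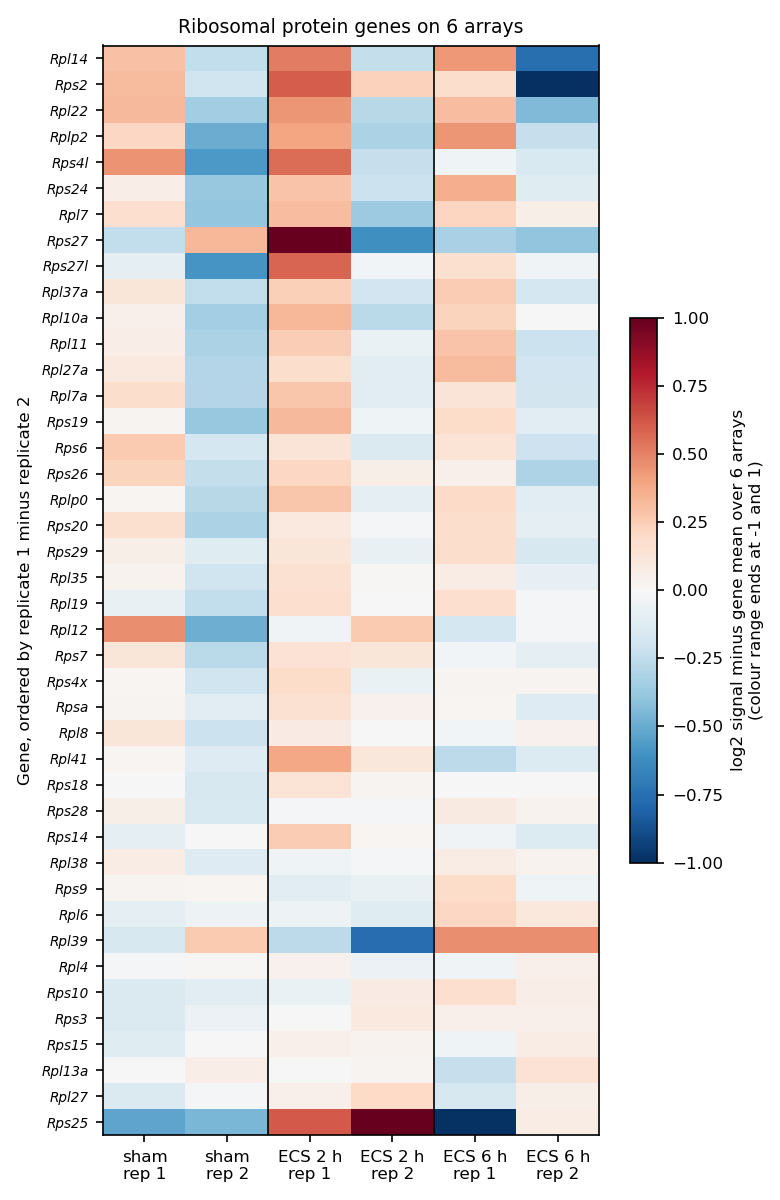
Heat map of the log2 signal minus the gene's own mean for the 42 genes (rows, ordered by replicate 1 minus replicate 2) on the 6 arrays (columns), red above and blue below the mean, with colours ending at -1 and 1. Most rows in the upper part alternate between red in replicate 1 and blue in replicate 2 in each group, and Rps25 in the last row is blue in sham and red at 2 h.

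Members with and without a tract at the start had like medians at 2 h, 0.14 for the 19 with it and 0.15 for the 17 tested members without it. A higher value at 2 h in both runs was found for 11 of the 19 and for 14 of the 17. The median run difference was 0.32 with a tract and 0.13 without. These are descriptions, since the genes share their arrays.

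The subunits were followed array by array. The median deviation of 60S members minus that of 40S members was 0.043 and -0.066 in sham, 0.025 and -0.079 at 2 h, and 0.14 and 0.076 at 6 h. The 6 h pair was above the rest, by an amount of the order of the gap between replicates. Another measure, the median fitted change of 60S members minus that of 40S members, was 0.038 at 6 h against sham. It was -0.031 when probe sets with the suffix _x_at or _s_at, which may bind related transcripts, were left out.

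Several members have more than 1 probe set, 96 in all for the 45 genes, of which 84 were tested. For the 19 genes with another tested probe set, 35 of 42 such probe sets had the sign of the chosen one at 2 h, 35 at 6 h and 26 between 6 h and 2 h. Rps24 has 4 bright probe sets, which gave 0.19, 0.20, 0.23 and 0.27 at 2 h and ordered the arrays by run alike. Ribosomal proteins have many processed pseudogenes and close paralogs, so a probe set named for 1 of them may also take up others.

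Rpl41 is a case in which the choice of probe set decides the direction. Its second bright probe set read 11.09 and 11.07 in sham, 10.63 and 10.21 at 2 h, and 9.99 and 10.79 at 6 h, a difference of -0.66 ± 0.26 at 2 h where the chosen one gave 0.31 ± 0.18. Its 2 dim probe sets gave 1.02 and 0.58. The 2 h value of this gene therefore has no settled sign.

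Rpl37a has a dim probe set, besides 2 bright ones, that read 4.50 and 4.53 in sham, 5.65 and 5.85 at 2 h, and 6.72 and 6.57 at 6 h. The groups did not overlap, and the differences from sham were 1.23 ± 0.42 at 2 h and 2.13 ± 0.42 at 6 h. The 2 bright probe sets of the gene gave 0.083 and 0.20 at 2 h, and 0.10 and 0.022 at 6 h. Rps20 has a dim probe set at -0.53 ± 0.60 at 6 h where its chosen probe set gave 0.12 ± 0.17. On the second bright probe set of Rpl37a both 2 h arrays lay above both sham arrays, by 0.20 ± 0.16. At 6 h the bright probe sets given for these genes differed from sham by less than their SE.

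A further 94 tested probe sets list several symbols of which at least 1 fits the rule. They are not named. Since they may take up the members' own transcripts and were read on the same arrays, they are not an independent check. Their median was 0.13 at 2 h, 0.073 at 6 h and -0.034 between 6 h and 2 h, and 62 of the 94 were higher in both runs at 2 h (27.6% of all tested). Limma called 0 of them in each comparison (0.0%), with 0, 1 and 0 at an unadjusted p under 0.05.

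Rpl14 had the widest run difference of the tested members, 0.83 ± 0.24, at 8.58 and 8.04, then 8.80 and 8.05, then 8.72 and 7.53. Its groups overlapped in every comparison. Rpl37, Rpl3l (a form made mainly in muscle) and Rpl39l (made mainly in testis) did not pass the filter, with all values between 4.04 and 4.88, next to the floor. Rpl37 has no other probe set with its symbol alone, so a low mRNA level and a poorly reading probe set cannot be told apart. Rps4l, which fits the naming rule although RefSeq lists it as a transcribed pseudogene, read 7.09 and 6.07, then 7.20 and 6.41, then 6.60 and 6.49.

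Another 4 ribosomal protein genes whose symbols fall outside the rule (Fau, Rpl7l1, Rpl22l1 and Rps3a1) were all higher at 2 h, with a median of 0.27. Rpl7l1, a paralog of Rpl7, read 6.55 and 5.82, then 6.80 and 7.43, then 5.85 and 5.88, a difference of 0.93 ± 0.42 at 2 h (limma unadjusted p = 0.048, adjusted p = 1.0). Fau, which carries the 40S protein Rps30 as part of a fusion, read 10.98 and 11.09, then 11.12 and 11.39, then 11.03 and 11.28. For Rpl7l1 and Fau both 2 h arrays lay above both sham arrays.

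Limma called 0 genes in each list of the translation machinery in each comparison, as it did over all tested probe sets (0.0%). A list of translation factors known for TOP tracts in their mRNAs had 12 of 16 higher at 2 h, with a median of 0.082. None reached an unadjusted limma p under 0.05 (4.0% of all tested). The list also holds Fau, which is counted above among the ribosomal protein genes. Eif4b, which helps the helicase eIF4A, stood 0.40 ± 0.29 above sham and Eef1d, an exchange factor of elongation factor 1, 0.20 ± 0.17. Initiation factors had 17 of 28 higher, with a median of 0.032, or -0.03 without scaling. Without scaling the median over all tested probe sets was itself -0.079 at 2 h. Mitochondrial ribosomal proteins, the parts of a separate ribosome, had 40 of 73 higher, with a median of 0.026 (-0.08 without scaling) and 1 at an unadjusted p under 0.05, Mrpl17 at 0.66 ± 0.29.

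Ribosome biogenesis genes had 27 of 39 higher at 2 h (50.9% of all tested probe sets), with a median of 0.13 and 2 at an unadjusted p under 0.05 (4.0% of all tested), a share near that background. The 2 were Imp4 and Sbds, with limma adjusted p-values of 1.0. Imp4, which acts in 40S rRNA processing, read 6.42 and 6.87, then 8.17 and 7.43, then 7.20 and 7.31, and Sbds, which readies new 60S subunits, read 7.17 and 7.75, then 8.04 and 8.64, then 7.51 and 7.90. Both genes had both 2 h arrays above both sham arrays, by 1.16 ± 0.39 and 0.87 ± 0.37. At 6 h 22 of 39 were higher, with Bop1, a 60S rRNA processing factor, at 1.10 ± 0.38 (limma unadjusted p = 0.015, adjusted p = 1.0). Genes of mTOR and S6 kinase signalling had 13 of 17 higher at 2 h, with a median of 0.18 and 1 at an unadjusted p under 0.05, again near the 4.0% of all tested. That gene was Sesn2, a stress-induced inhibitor of mTORC1, which stood at 5.57 and 4.63, then 6.58 and 6.31, then 4.67 and 5.72, a 2 h difference of 1.34 ± 0.52 (limma adjusted p = 1.0).

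Markers of cell types were read on the same arrays. Of 18 neuron markers, 17 were lower at 2 h, with a median of -0.38, and their summed normalized signal was 22202 to 23217 in sham, 16687 to 17686 at 2 h and 17905 to 21550 at 6 h. All 18 passed the filter, and limma called 0, with 4 at an unadjusted p under 0.05 (4.0% of all tested). Of the oligodendrocyte markers 6 of 8 were lower, with a median of -0.42 and a summed signal of 3499 to 3860 in sham, 2928 to 3095 at 2 h and 2590 to 2771 at 6 h. Mog, Mag and Sox10 of that list did not pass the filter. All 5 tested PVN peptide markers were higher at 2 h, with a median of 0.29, and Otp did not pass. Astrocyte markers had 6 of 10 lower (median -0.096), microglia and macrophage markers 4 of 8 (-0.074), and endothelial and mural markers 2 of 8 (0.30). Of the ependymal, tanycyte and choroid plexus markers only 2 passed, and Ttr and Foxj1 were among the 6 that did not. Of the blood markers 2 of 3 were lower (-0.18). The part of these markers in the ribosomal protein values was not tested.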

How the data were processed

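Total RNA of the PVN was measured on 6 Affymetrix mouse arrays. The authors deposited linear intensity values. MAS5 is named in the submitters' processing notes, with its version, target and detection calls not given in the sources used here. Pools of 2 ng total RNA went into Ovation Pico WTA amplification, and 5 µg of cDNA onto each array, per the labels' protocols. From 22690 probe sets the 64 controls were removed, the rest were quantile-normalized, and 16 was added before taking log2. Dim probe sets are therefore shrunk toward 0. Probe sets that reached the median of the array in question on at least 2 arrays, 12662 in all, were tested with limma 3.58.1 in R 4.3.3 (mean per group, intensity trend, 3 residual and 7.64 prior degrees of freedom, two-sided), adjusted by Benjamini-Hochberg over all of them at 0.05.

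The members and lists were chosen with earlier results of these data known. Named members are those called, the 8 with the smallest p in each comparison, a set of well-known ones, the 4 steadiest and the 4 most variable, those not passing the filter and those whose probe sets differ in sign by over 0.5, which gave 35. The deviations of same-numbered replicates from their group means correlated by 0.23, 0.18 and 0.15 between pairs of groups, and the design text says that the work was done again on other animals, so the replicate number was read as the run and fitted as a block. The procedure was tested on simulated data. Precision is limited by the number of arrays. Symbols came from the array annotation, with 20351 probe sets matched to RefSeq by Entrez identifier and 0 symbols changed.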

Additional observations from a re-analysis of the deposited data

How the results depend on the processing

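The count of called members was 0 in all 3 comparisons under each of the 21 alternatives (offset, scaling, filter, variance trend, array weights, replicate block, only the arrays compared, probe set choice, brighter members, several-symbol probe sets, each array left out), with lowest adjusted p-values of 0.50, 0.50 and 0.31. With the replicate block limma called 0 members, where of all tested probe sets it called 0.0316% at 2 h and 0.0% in the other comparisons. The medians, 0.14, 0.076 and -0.041, were the same by construction. The median member change moved by more than the spread between arrays at 6 h against sham with no scaling (0.27) and median subtraction (0.29), and at 6 h against 2 h with no scaling (0.16). Less the median of all tested probe sets, it was 0.13 at 2 h, or 0.20 to 0.21 under other scalings, and 0.079 at 6 h, or 0.17 to 0.19. With 1 array of a comparison left out, unlike runs are set against each other. The median member change then ran from 0.0022 to 0.30 at 2 h, from -0.025 to 0.21 at 6 h and from -0.17 to 0.076 between them. The 60S minus 40S difference of median fitted changes ran from -0.12 to 0.091, from -0.040 to 0.20 and from 0.010 to 0.18, and was -0.031 at 6 h against sham without _x_at and _s_at probe sets. Values that reversed were Rps24 at 6 h against sham (-0.067 without those probe sets, which leaves a dim one), Rpsa at 6 h against 2 h (0.047 with no scaling) and Rps2 at 6 h against sham, which ran from -1.17 to 0.11 with 1 array left out, and the cause was not tested.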
